A study of Mus musculus with 2 samples.

Results

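The 10 genes described here encode the thin filament of heart muscle and the proteins at its ends: the actins Actc1 and Acta1, the troponins Tnnt2, Tnni3, Tnnc1 and Tnni1, the tropomyosin Tpm1, the end proteins Tmod1 and Lmod2, and Nebl. They were chosen by name from 12395 genes, as sarcomere genes with a known place in the thin filament. The choice of these genes, and of the other gene lists below, was made with earlier results of these data known. All 10 genes had at least 1 transcript in the table. Their 43 listed transcripts, of 79 annotated ones, were taken from the 23178 transcripts of the table, each alone and summed per gene. The tissue was heart of C57BL/6 mice. In the CHAPIR group, a mimic of CHAPIR, a piRNA studied in cardiac hypertrophy, was delivered at 30 mg/kg from an osmotic minipump that stayed in the animal for 14 days, and the heart was labelled as taken at 2 weeks. In the NC group a scrambled mimic was delivered in the same way, and the labels state no separate dose for it. Each group held 1 library, so every difference below describes 2 libraries and has no replicate check, no error and no test.

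In striated muscle the thin filament is a double strand of actin on which tropomyosin lies end to end, with a troponin complex on each tropomyosin. When calcium binds troponin C, troponin I lets go of actin, troponin T passes the change to tropomyosin, and myosin can reach actin. Tropomodulin caps the pointed end of the filament, leiomodin lengthens it there, and nebulette holds it at the Z-disc, the anchoring plane of the sarcomere. The heart changes isoforms of several of these proteins between fetal and adult life, and in rodents some fetal isoforms are known to return under pressure overload.

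Values are read as FPKM, that is, fragments counted per kilobase of a transcript and scaled for library size, so levels are given per length and can be set side by side within a library. Neither the depth of the libraries nor a counting interval was known. Mitochondrially encoded genes held 34.1% of the summed gene values in the CHAPIR heart, against 32.2% in the NC heart. The Y-linked genes Ddx3y and Eif2s3y were at 21.6 and 22.1 FPKM in the CHAPIR library and both were listed at 0 in the NC library, so that apparent sex and mimic differed together and cannot be told apart in any result below. The tissue label was checked on 12 cardiomyocyte markers, all of them present, which summed to 19276 FPKM in the CHAPIR heart, against 20777 FPKM in the NC heart.

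Thin filament genes were among the most abundant in both hearts, and most differed little. Their summed level was 14114 FPKM in the CHAPIR heart, against 14617 FPKM in the NC heart, or 5.33% of the nuclear-encoded total in CHAPIR against 5.46% in NC. Tnnt2, Tpm1, Actc1, Tnni3 and Tnnc1 each ranked among the 24 highest of 11416 genes in both libraries, where a gene counted if it reached 1 FPKM in at least 1 library. Lmod2, Acta1, Tmod1 and Nebl lay in the next tier, from 94.2 FPKM (Nebl) to 346 FPKM (Lmod2) in the CHAPIR heart, and Tnni1 lay at the low end of the table.

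**Figure D1:**
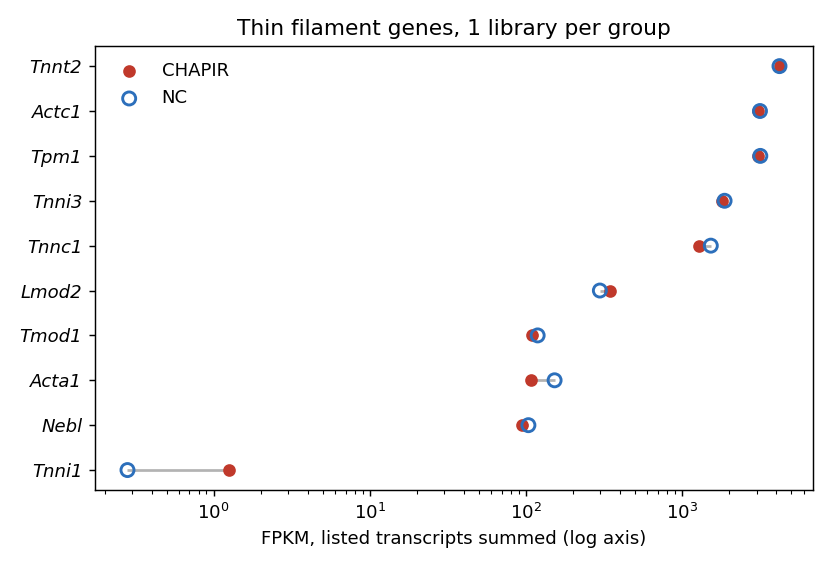
Summed FPKM of each thin filament gene (log axis) in the CHAPIR library (filled) and the NC library (open), 1 library per group, with a grey line joining the 2 values. The points of 8 genes nearly coincide, Acta1 lies lower in the CHAPIR library (CHAPIR 108, NC 153 FPKM), and Tnni1 lies apart from all others at 1.25 FPKM in CHAPIR against 0.281 FPKM in NC.

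Differences are given as log2 ratios of CHAPIR over NC after adding 1 FPKM to each value, which understates the change of low values, and were counted at 1.5-fold on that scale. Of the 10 genes, 1 was 1.5-fold higher in the CHAPIR library (Tnni1), against 6.81% of all 11416 genes, and 0 were 1.5-fold lower, against 3.85%. Tnni1 passed the filter on low values only through the CHAPIR library, so it had to be higher there. Among 442 abundant genes, with a mean over both libraries of 100 FPKM or more, the range in which most of these genes lie, 2.71% were 1.5-fold higher and 1.13% lower. The log2 ratio was within 0.25 of 0 for 8 of the 10 genes, the exceptions being Acta1 (-0.49) and Tnni1 (0.82). The sign was negative for 7 genes (8 with values divided by their sum, which put Tnnt2 at -0.02, and 4 under quantile normalization, which put Actc1, Tnni3 and Tnnc1 at 0), and the median of the 10 was -0.05, beside 0.01 over all genes and -0.07 over those at 100 FPKM or more. In those abundant genes the central 80% of log2 ratios ran from -0.25 to 0.20. Lmod2 (0.21) and Acta1 lay outside that range, and Tnnc1 (-0.24) lay just inside it.

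**Figure D2:**
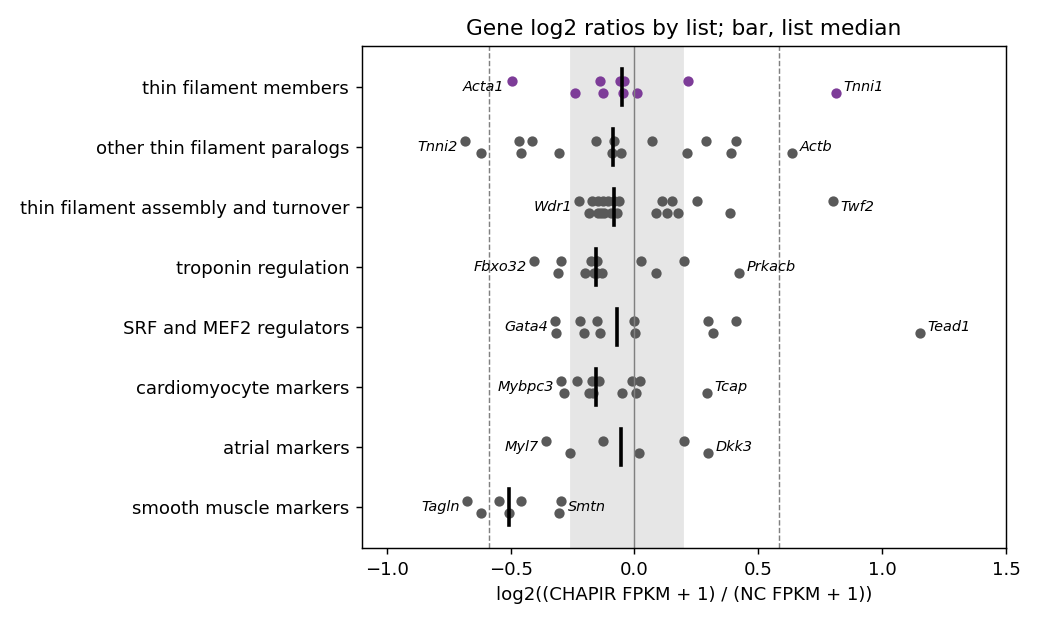
Log2 ratio of CHAPIR over NC for each measured gene (points) of the thin filament genes and 7 other gene lists, with list medians as bars, the 1.5-fold threshold as dashed lines and the 10th to 90th percentile of genes at 100 FPKM or more as a grey band. Thin filament genes cluster near 0 with a median of -0.05, and all 7 smooth muscle markers lie below 0.

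Actc1, the alpha actin of cardiac muscle (chr2:114047282-114053548 in GRCm38, minus strand), was at 3063 FPKM in the CHAPIR heart, against 3157 FPKM in the NC heart (log2 ratio -0.04). Its rank was 17 in both. Nearly all of it came from 1 transcript with 7 exons and 1131 coding bases, Actc1-201 (ENSMUST00000090269.6), at 3058 FPKM in CHAPIR against 3150 FPKM in NC. The other, Actc1-202, has an incomplete model and was at 4.86 FPKM in CHAPIR against 6.93 FPKM in NC.

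Acta1, the alpha actin of skeletal muscle (chr8:123891769-123894751, minus strand), is expressed in the fetal heart and in rodents returns in hypertrophy. It was at 108 FPKM in the CHAPIR heart, against 153 FPKM in the NC heart, 0.708 times the NC level and a log2 ratio of -0.49. It thus lay lower in the CHAPIR heart without reaching 1.5-fold as a gene, and its rank was 401 in the CHAPIR heart, against 280 in the NC heart. The full-length transcript Acta1-201 (ENSMUST00000034453.5) carried the difference, at 101 FPKM in CHAPIR against 150 FPKM in NC (log2 ratio -0.56). The incomplete model Acta1-202, with 454 coding bases, went the other way, at 6.78 FPKM in CHAPIR against 3.06 FPKM in NC (log2 ratio 0.94). Acta1-202 held 6.27% of the Acta1 level in the CHAPIR heart, against 2.00% in the NC heart. Since both models share sequence, how the authors' tool divided reads between them is uncertain.

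The coding sequences of Actc1 and Acta1 are near copies, with 976 of 1131 bases identical (86.3%), which leaves 155 coding positions where a read can tell them apart. How shared reads were counted is not stated, and the non-coding parts of both transcripts were not compared. How far shared reads affect the level of Acta1, by far the lower of the pair, is therefore not known. Smooth muscle Acta2 matched Actc1 at 934 of 1131 bases (82.6%). Acta1 made up 3.41% of the level of both sarcomeric alpha actins in the CHAPIR heart, against 4.61% in the NC heart. Within a library this share does not depend on the scaling between libraries.

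Among all 6 actins, Actc1 held 87.6% of the summed level in the CHAPIR heart, against 88.1% in the NC heart. The cytoplasmic actins Actb and Actg1 together held 7.17% in the CHAPIR heart, against 4.76% in the NC heart, and the smooth muscle actins Acta2 and Actg2 together 2.10% in CHAPIR against 2.83% in NC. Actb was at 167 FPKM in the CHAPIR heart, against 107 FPKM in the NC heart (log2 ratio 0.64). Of the actins other than Actc1, both cytoplasmic ones were therefore higher in the CHAPIR heart and all 3 remaining muscle actins lower, where Acta2 and Actg1 are named after their values were seen.

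**Figure D3:**
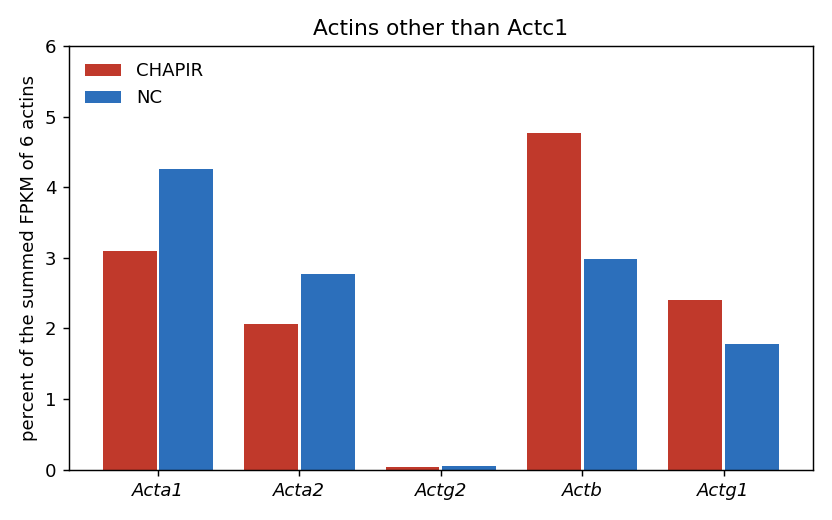
Percent of the summed FPKM of 6 actin genes held by each actin other than Actc1 in the CHAPIR library (red) and the NC library (blue), 1 library per group. Acta1 (CHAPIR 3.10%, NC 4.26%), Acta2 (CHAPIR 2.07%, NC 2.78%) and Actg2 are lower and Actb (CHAPIR 4.77%, NC 2.98%) and Actg1 (CHAPIR 2.40%, NC 1.78%) higher in the CHAPIR library.

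Markers of smooth muscle lay on the same side of 0 as Acta1. Of the 7, 2 were 1.5-fold lower in the CHAPIR library, against 3.85% of all genes, and the other 5 had negative log2 ratios. Over all 7 the median log2 ratio was -0.51 and the summed level 164 FPKM in the CHAPIR heart, against 229 FPKM in the NC heart. Tagln (CHAPIR 24.2, NC 39.2 FPKM) and Lmod1 (CHAPIR 2.57, NC 4.48 FPKM) were those 2, and Smtn (CHAPIR 45.6, NC 56.3 FPKM) and Actg2 (CHAPIR 1.30, NC 1.84 FPKM) were the nearest to 0. None of the 7 was listed at 0. Of 11 skeletal muscle markers, 8 had no listed transcript in the table (Myh1, Myh2, Myh4, Mylpf, Actn3, Tnnt3, Tnnc2 and Atp2a1). Of the 3 listed ones, 2 were measured, Tnni2 at 0.660 FPKM in CHAPIR against 1.67 FPKM in NC and Mylk4 at 39.8 FPKM in CHAPIR against 47.3 FPKM in NC, and Tnni2 passed the filter only through the NC library and had to be lower. The third, Pvalb, was under 1 FPKM in both, at 0.654 FPKM in CHAPIR against 0.245 FPKM in NC, and the 3 summed to 41.1 FPKM in the CHAPIR heart, against 49.2 FPKM in the NC heart. The part of either tissue in the Acta1 value was not tested, and in bulk heart fewer cells of a type and less RNA per cell cannot be told apart.

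Promoter windows of both sarcomeric actins are shown because Acta1 and Actc1 are classic targets of serum response factor, which binds the CArG box, and Acta1 also of TEAD factors, which bind the M-CAT element. The windows are the 250 bases before the RefSeq start (GRCm38), Acta1 at chr8:123894776-123895025 and Actc1 at chr2:114052876-114053125, both on the minus strand, with matches to either motif in capitals.
Acta1 promoter: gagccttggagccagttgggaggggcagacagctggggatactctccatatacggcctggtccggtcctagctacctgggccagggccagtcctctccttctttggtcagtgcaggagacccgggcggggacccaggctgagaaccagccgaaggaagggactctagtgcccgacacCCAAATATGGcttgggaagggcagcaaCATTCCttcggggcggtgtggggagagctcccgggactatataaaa
Actc1 promoter: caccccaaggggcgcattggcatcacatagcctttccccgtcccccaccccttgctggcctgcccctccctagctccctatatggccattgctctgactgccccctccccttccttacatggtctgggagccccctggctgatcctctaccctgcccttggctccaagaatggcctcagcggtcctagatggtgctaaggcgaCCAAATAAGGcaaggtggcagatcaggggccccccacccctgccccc

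The Acta1 window held a CArG match from 73 to 64 bases before the start and an M-CAT match from 46 to 41 bases before it, and the Actc1 window a CArG match from 47 to 38 bases before it. M-CAT was searched as CATTCC or GGAATG on either strand, CArG by its full consensus, and no match of one motif overlapped the other. Over 32851 RefSeq windows of the same length, 1.47% held a CArG match and 12.6% an M-CAT match. The 10 thin filament genes had 15 windows, of which 3 held a CArG match (Acta1, Actc1 and 1 of 4 Nebl windows). An M-CAT match was in 6 (Acta1, Tnnt2, Tpm1, Tnnc1, Tmod1 and a different Nebl window). These windows follow RefSeq starts, and not all of them lie before the main listed transcript. The Tnnt2 window lies before the upstream first exon, whereas Tnnt2-206, Tnnt2-201 and Tnnt2-207 start at chr1:135840875. Neither Nebl window with a match lies just before the start of a listed transcript. The Tmod1 window lies within the span of Tmod1-201, which starts at chr4:46038935. The genes with a CArG match had log2 ratios of -0.49 (Acta1), -0.14 (Nebl) and -0.04 (Actc1). A match is a description of letters and not of binding, and a link between matches and levels was not tested.

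Cardiac troponin T, Tnnt2 (chr1:135836354-135852260, plus strand), ties the troponin complex to tropomyosin and had the highest level of the 10 genes. It was at 4235 FPKM in the CHAPIR heart, against 4210 FPKM in the NC heart (log2 ratio 0.01). The table listed 12 of its 15 annotated transcripts, with 9 distinct coding sequences. In the heart the early coding exons are spliced in different combinations, and the segment of Tnnt2 where the most abundant transcripts differ is printed from the GENCODE M21 transcripts. The stretch spans chr1:135840893-135845574 (GRCm38, plus strand) and starts 20 bases before the end of an exon that all 3 contain, with the optional exons in capitals. Tnnt2-207 has the 12-base and the 30-base exon, Tnnt2-206 the 12-base exon alone, and Tnnt2-201 neither.
Tnnt2-207: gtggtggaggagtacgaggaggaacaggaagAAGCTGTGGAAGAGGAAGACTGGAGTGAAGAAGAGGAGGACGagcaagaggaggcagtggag
Tnnt2-206: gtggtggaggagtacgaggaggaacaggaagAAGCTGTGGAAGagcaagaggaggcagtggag
Tnnt2-201: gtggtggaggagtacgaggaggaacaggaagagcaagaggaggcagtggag

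The transcript with the 12-base exon alone was the most abundant, Tnnt2-206 at 1488 FPKM in the CHAPIR heart, against 1470 FPKM in the NC heart. Tnnt2-201 was at 1069 FPKM in CHAPIR against 1057 FPKM in NC, and Tnnt2-211, with the same coding sequence but an upstream non-coding first exon, at 751 FPKM in CHAPIR against 772 FPKM in NC. Tnnt2-207 was at 655 FPKM in CHAPIR against 672 FPKM in NC. These 4 transcripts all had log2 ratios within 0.05 of 0. Of the next in level, the incomplete model Tnnt2-214 was at 129 FPKM in CHAPIR against 103 FPKM in NC and Tnnt2-203, with a longer exon that covers the 30-base one, at 65.6 FPKM in CHAPIR against 54.1 FPKM in NC, log2 ratios of 0.32 and 0.27. The remaining 6 (Tnnt2-212, Tnnt2-205, Tnnt2-213, Tnnt2-202, Tnnt2-204 and Tnnt2-209) were under 28 FPKM in both libraries, with log2 ratios from -0.45 for the incomplete Tnnt2-213 to 0.21 for Tnnt2-204.

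Grouped by identical coding sequence, the form of 873 bases (Tnnt2-201 and Tnnt2-211) held 43.0% of Tnnt2 in the CHAPIR heart, against 43.4% in the NC heart. The form of 885 bases shared by Tnnt2-206 and Tnnt2-212 held 35.8% in CHAPIR against 35.6% in NC, and the form of 906 bases shared by Tnnt2-207 and Tnnt2-209 held 15.5% in CHAPIR against 16.0% in NC. The proportions of the 3 main troponin T forms were thus nearly equal in both hearts.

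Counted by exon, the 12-base exon (chr1:135842015-135842026) was in transcripts holding 51.5% of the Tnnt2 level in the CHAPIR heart, against 51.9% in the NC heart. The 30-base exon (chr1:135843785-135843814), used in embryonic heart and mostly skipped in the adult, was in 15.9% of the level in CHAPIR against 16.4% in NC, or 18.0% in CHAPIR against 18.3% in NC with transcripts whose longer exon covers it. A 9-base exon near the coding end (chr1:135850379-135850387) was in 80.6% in both libraries, and the upstream non-coding first exon in 22.1% in both. None of these Tnnt2 segments differed by as much as 1 percentage point between the libraries, and other exon choices were not scored. The incomplete models Tnnt2-214 and Tnnt2-213 end before the 9-base exon and so count as lacking it.

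**Figure D4:**
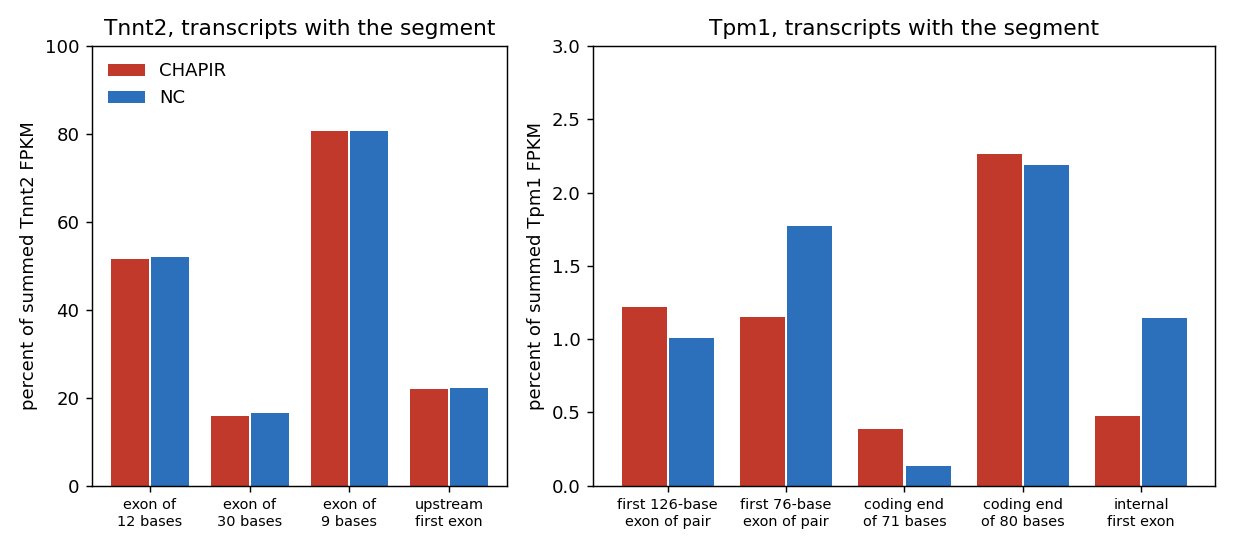
Percent of the summed Tnnt2 FPKM (left, axis to 100) and Tpm1 FPKM (right, axis to 3) held by transcripts with each variable segment shown, in the CHAPIR library (red) and the NC library (blue). Tnnt2 shares are nearly equal, as in 15.9% in CHAPIR against 16.4% in NC for the 30-base exon, whereas among the rare Tpm1 segments the internal first exon is at 0.474% in CHAPIR against 1.15% in NC.

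Cardiac troponin I, Tnni3 (chr7:4518305-4524229, minus strand), the inhibitory subunit and a target of protein kinase A, was at 1815 FPKM in the CHAPIR heart, against 1873 FPKM in the NC heart (log2 ratio -0.05). Its full-length transcript Tnni3-201 was at 1795 FPKM in CHAPIR against 1851 FPKM in NC and held 98.9% of the gene in CHAPIR against 98.8% in NC. The other 3 have incomplete models and were at 10.4 FPKM in CHAPIR against 9.35 FPKM in NC (Tnni3-208), 8.54 FPKM in CHAPIR against 12.0 FPKM in NC (Tnni3-205) and 1.29 FPKM in CHAPIR against 0.619 FPKM in NC (Tnni3-207). Tnni3-207 reached 1 FPKM only through the CHAPIR library.

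Slow skeletal troponin I, Tnni1 (chr1:135779434-135810989, plus strand), is the inhibitory subunit of the fetal heart and is replaced by Tnni3 after birth. It was at 1.25 FPKM in the CHAPIR heart, against 0.281 FPKM in the NC heart, all from Tnni1-207, the 1 listed transcript of 9 annotated. Tnni1 made up 0.0690% of the summed level of both troponin I genes in the CHAPIR heart, against 0.0150% in the NC heart. With a level near the table's lower limit of 0.5 FPKM for the higher library, its log2 ratio of 0.82 ran from 0.24 with a pseudocount of 5 to 1.83 with one of 0.1. Tnni3 thus held nearly all troponin I in both hearts.

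Troponin C, Tnnc1 (chr14:31208312-31211729, plus strand), the calcium sensor shared by heart and slow skeletal muscle, was at 1294 FPKM in the CHAPIR heart, against 1529 FPKM in the NC heart. Its log2 ratio of -0.24 was the lowest of the 3 cardiac troponin subunits, and its rank was 24 in both libraries. All of it came from Tnnc1-202, with 6 exons, 1 of 3 annotated transcripts. Tnnt2 over Tnnc1 was 3.27 in the CHAPIR heart, against 2.75 in the NC heart, and Tnni3 over Tnnc1 was 1.40 in CHAPIR against 1.23 in NC. Tnnt2 over Tnni3 was closer, at 2.33 in CHAPIR against 2.25 in NC. The ratio of the T to the I subunit was thus nearly the same in both hearts, while Tnnc1 was lower relative to both in the CHAPIR heart.

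Tropomyosin, encoded in the heart mainly by Tpm1 (chr9:67022590-67049406, minus strand), is a coiled coil that lies along actin. Tpm1 was at 3049 FPKM in the CHAPIR heart, against 3173 FPKM in the NC heart (log2 ratio -0.06), and the level of Actc1 over that of Tpm1 was 1.00 in both libraries. Of the 4 tropomyosin genes, Tpm1 held 96.2% of the summed level in the CHAPIR heart, against 96.6% in the NC heart. The table listed 14 of its 21 annotated transcripts, each with its own coding sequence. They differ in the first coding exon, in 2 pairs of alternative exons of equal length, and in the coding end.

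Both pairs are printed because Tpm1 transcripts differ in which exon of each pair they contain. The first 126-base exon lies at chr9:67048124-67048249 and the second at chr9:67047786-67047911, the first 76-base exon at chr9:67032466-67032541 and the second at chr9:67031951-67032026 (GRCm38, minus strand). Capitals mark the bases that differ within a pair.
Tpm1 first 126-base exon: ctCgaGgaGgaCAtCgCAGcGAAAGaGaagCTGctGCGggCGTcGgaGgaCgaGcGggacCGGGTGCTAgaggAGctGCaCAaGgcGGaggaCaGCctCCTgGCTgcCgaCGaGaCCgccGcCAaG
Tpm1 second 126-base exon: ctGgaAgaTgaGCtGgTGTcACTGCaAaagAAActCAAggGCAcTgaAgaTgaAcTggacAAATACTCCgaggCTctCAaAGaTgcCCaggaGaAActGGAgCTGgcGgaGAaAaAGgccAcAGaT
Tpm1 first 76-base exon: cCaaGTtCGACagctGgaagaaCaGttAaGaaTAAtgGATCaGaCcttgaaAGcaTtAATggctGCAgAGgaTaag
Tpm1 second 76-base exon: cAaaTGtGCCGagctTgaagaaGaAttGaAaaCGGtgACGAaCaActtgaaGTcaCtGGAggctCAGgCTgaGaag

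Only 60 of 126 bases (47.6%) were identical between the exons of the longer pair and 43 of 76 (56.6%) between those of the shorter pair. The second exon of the longer pair, the one used in striated muscle, was in transcripts with 98.8% of the Tpm1 level in the CHAPIR heart, against 98.2% in the NC heart. The first, known from smooth muscle, was in 1.22% in CHAPIR against 1.01% in NC, and 1 transcript, Tpm1-202, contains both. For the shorter pair, the second exon was in 98.8% in CHAPIR against 98.2% in NC and the first in 1.15% in CHAPIR against 1.77% in NC. Both hearts therefore used the striated muscle exons almost throughout.

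Tpm1-205 (ENSMUST00000113685.9), the striated muscle form of 852 coding bases, was at 2467 FPKM in the CHAPIR heart, against 2613 FPKM in the NC heart, 80.9% of the gene in CHAPIR against 82.3% in NC. Next came Tpm1-207, which skips the exon that holds the coding end of Tpm1-205, at 404 FPKM in CHAPIR against 405 FPKM in NC, 13.3% in CHAPIR against 12.8% in NC. The other 12 transcripts shared the few percent of Tpm1 that remained.

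Larger ratios were found among those minor transcripts. Tpm1-201 was at 83.0 FPKM in the CHAPIR heart, against 42.2 FPKM in the NC heart (log2 ratio 0.96), and made up 2.72% of the gene in CHAPIR against 1.33% in NC. Its coding sequence differs from that of Tpm1-205 by 1 of 852 bases, and it ends in an extended form of the same exon in place of splicing on. Tpm1-204, a short form that starts at the internal first exon, was at 2.42 FPKM in the CHAPIR heart, against 31.0 FPKM in the NC heart (log2 ratio -3.23), the largest in size among thin filament transcripts above 0 in both libraries. Tpm1-209, also from the internal first exon, was at 7.32 FPKM in CHAPIR against 4.30 FPKM in NC (log2 ratio 0.65).

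Tpm1-208 and Tpm1-210 were at 2.96 and 1.5 FPKM in the CHAPIR library and were both listed at 0 in the NC library, which can be a failed estimate, so no fold is given for them. The 8 transcripts at 1.5-fold among the 41 that reached 1 FPKM also included Tnni1-207, Acta1-202 and Nebl-213, so that Tpm1 gave 5 of them. Tmod1-205 and Nebl-201 stayed under 1 FPKM in both libraries and were not counted. Tnni1-207, Tpm1-208 and Tpm1-210 reached 1 FPKM only through the CHAPIR library and Nebl-213 only through the NC library, so their direction was fixed by that filter. Of the 41 transcripts that reached 1 FPKM, 6 (14.6%) were higher and 2 (4.88%) lower in the CHAPIR library, where 16.2% of all 18413 such transcripts were higher and 13.7% lower. The 7 other Tpm1 transcripts (Tpm1-216, Tpm1-214, Tpm1-202, Tpm1-203, Tpm1-215, Tpm1-213 and Tpm1-206) lay between 1 and 33 FPKM. Their log2 ratios ran from -0.29 (Tpm1-215, CHAPIR 6.87, NC 8.62 FPKM) to 0.48 (Tpm1-202, CHAPIR 14.6, NC 10.1 FPKM).

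By segment, the internal first coding exon (chr9:67043578-67043709), which gives the shorter tropomyosins of non-muscle cells, was in transcripts summing to 14.5 FPKM in the CHAPIR heart, against 36.4 FPKM in the NC heart, 0.474% of Tpm1 in CHAPIR against 1.15% in NC. That difference came from Tpm1-204 alone, since the 3 other transcripts with this exon were each higher in the CHAPIR library. The same transcript accounted for the lower share of the first 76-base exon, having 31.0 of its 56.1 FPKM in the NC library. The coding end of 71 bases (chr9:67024495-67024565) went the other way, at 11.8 FPKM in CHAPIR against 4.30 FPKM in NC, or 0.386% of Tpm1 in CHAPIR against 0.136% in NC, and 2 of its 3 transcripts were listed at 0 in the NC library. The coding end of 80 bases (chr9:67023362-67023441), typical of smooth muscle and non-muscle forms, was in 2.26% in CHAPIR against 2.19% in NC. Transcripts with the first 126-base exon, the one known from smooth muscle, summed to 37.2 FPKM in the CHAPIR heart, against 31.9 FPKM in the NC heart, while all 7 smooth muscle marker genes had negative log2 ratios. Because these transcripts share most of their exons, the division of reads among them is uncertain.

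**Figure D5:**
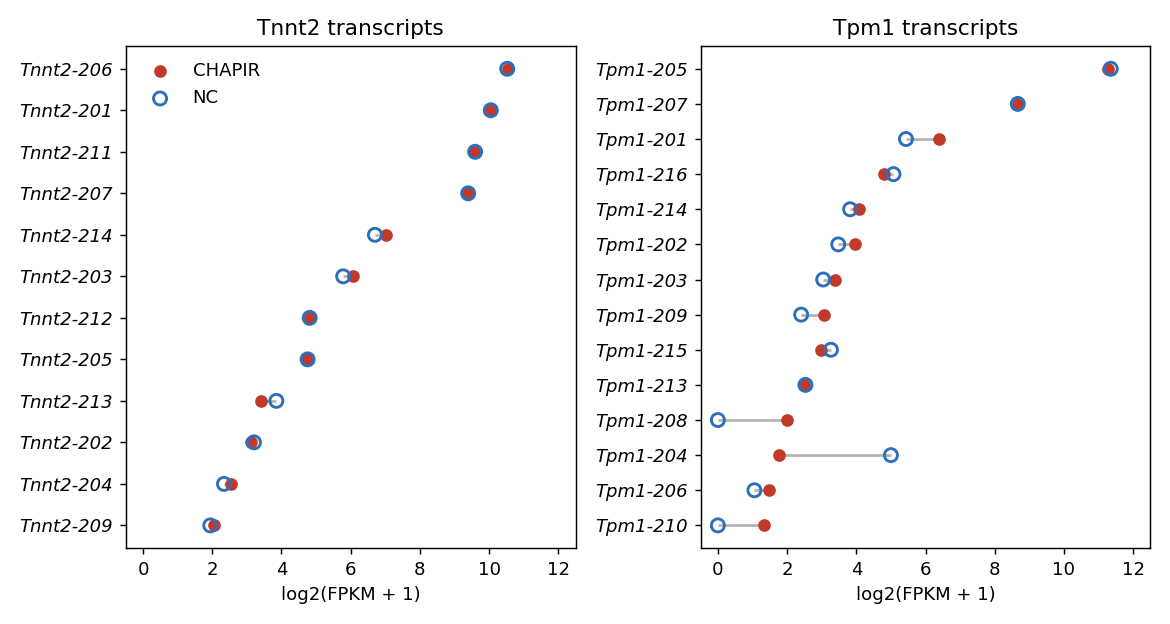
Level of each listed Tnnt2 (left) and Tpm1 (right) transcript as log2(FPKM + 1) in the CHAPIR library (filled) and the NC library (open). The abundant transcripts of both genes coincide, and the gaps lie in minor Tpm1 transcripts such as Tpm1-204 (CHAPIR 2.42, NC 31.0 FPKM) and Tpm1-201 (CHAPIR 83.0, NC 42.2 FPKM).

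At the pointed end, the capping protein Tmod1 (chr4:46038935-46116032, plus strand) was at 109 FPKM in the CHAPIR heart, against 119 FPKM in the NC heart (log2 ratio -0.13). Its main transcript Tmod1-201 was at 109 FPKM in CHAPIR against 118 FPKM in NC. The incomplete model Tmod1-205 had a listed value of 0 in the CHAPIR heart and of 0.760 FPKM in the NC heart. Lmod2 (chr6:24597762-24605414, plus strand), the leiomodin of the heart that lengthens thin filaments, has 1 annotated transcript, with 3 exons and 1650 coding bases. It was at 346 FPKM in the CHAPIR heart, against 298 FPKM in the NC heart (log2 ratio 0.21), with a rank of 110 in CHAPIR against 142 in NC. The level of Lmod2 over that of Tmod1 was 3.18 in the CHAPIR heart, against 2.503 in the NC heart, since transcripts of these 2 genes had log2 ratios of opposite sign.

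Nebl (chr2:17343909-17731464, minus strand) encodes nebulette and, from a far upstream first exon, a LIM-domain protein also called LASP2. It was at 94.2 FPKM in the CHAPIR heart, against 104 FPKM in the NC heart (log2 ratio -0.14). The full nebulette transcript Nebl-202, with 28 exons and 3042 coding bases, was at 46.0 FPKM in CHAPIR against 49.7 FPKM in NC, and the incomplete model Nebl-210, which shares its first coding exon, at 47.9 FPKM in CHAPIR against 51.1 FPKM in NC. Nebulette thus held 99.7% of Nebl in the CHAPIR heart, against 97.1% in the NC heart. The LIM-domain transcript Nebl-201 was at 0.0578 FPKM in CHAPIR against 0.912 FPKM in NC. Nebl-213, which starts inside the gene, was at 0.249 FPKM in CHAPIR against 2.08 FPKM in NC (log2 ratio -1.30), and reached 1 FPKM only through the NC library. Both minor Nebl forms reached the table's lower limit of 0.5 FPKM only through the NC library, so they had to be lower in CHAPIR. The difference in the nebulette share rests on these low forms alone.

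Paralogs of the thin filament genes that serve other muscles or cells had log2 ratios from -0.68 (Tnni2) to 0.64 (Actb). Of 19 such genes, 16 were measured, with a median log2 ratio of -0.09. At 1.5-fold 1 was higher, against 6.81% of all genes, and 2 were lower, against 3.85%. One of the lower ones, Tnni2, had its direction fixed by the filter, as above. The other, Lmod1, is also counted among the smooth muscle markers, as are Acta2 and Actg2. The highest were Actb, given above, and the tropomyosin gene Tpm3, at 35.6 FPKM in CHAPIR against 26.6 FPKM in NC. Of Tpm3, 2 of 16 annotated transcripts were listed, and which forms they encode was not examined. The lowest were fast skeletal Tnni2 and smooth muscle Lmod1, also given above, and fast skeletal Tnnt3 and Tnnc2 had no listed transcript. Slow skeletal Tnnt1 at 10.6 FPKM in CHAPIR against 14.5 FPKM in NC and the muscle tropomyosin gene Tpm2 at 22.5 FPKM in CHAPIR against 31.5 FPKM in NC, lay on the same side as Acta1, and Tpm4 at 62.9 FPKM in CHAPIR against 54.1 FPKM in NC on that of Actb. These 3 were picked after their values were seen.

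Genes of thin filament assembly and turnover were all measured (21 of 21), with a median of -0.08. At 1.5-fold 1 was higher, against 6.81% of all genes, and 0 were lower, against 3.85%. Twf2, which binds actin monomers and filament ends, was at 67.7 FPKM in the CHAPIR heart, against 38.4 FPKM in the NC heart (log2 ratio 0.80), and Tmsb4x, encoding the monomer-binding thymosin beta-4, at 263 FPKM in CHAPIR against 201 FPKM in NC. The lowest were Wdr1, a partner of cofilin in severing, at 31.9 FPKM in CHAPIR against 37.3 FPKM in NC and the muscle cofilin gene Cfl2 at 38.1 FPKM in CHAPIR against 43.4 FPKM in NC. A list of 16 genes for troponin regulation held genes of phosphorylation and turnover, and also Pkp2 and Mybpc3. Mybpc3 is counted again among the cardiomyocyte markers below. Of the 16 genes, 14 were measured and 0 passed 1.5-fold, with a median of -0.15. The protein kinase A subunit gene Prkacb was at 18.0 FPKM in CHAPIR against 13.2 FPKM in NC and Prkca at 4.91 FPKM in CHAPIR against 4.14 FPKM in NC. The ubiquitin ligase genes Fbxo32, at 22.9 FPKM in CHAPIR against 30.6 FPKM in NC, and Trim63, whose product MuRF1 ubiquitinates troponin I, at 69.9 FPKM in CHAPIR against 86.8 FPKM in NC, were the lowest.

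The 12 transcriptional regulators of sarcomere genes were all measured, with a median of -0.07. Of these, 1 was 1.5-fold higher, against 6.81% of all genes, and 0 were lower, against 3.85%. Tead1, which binds M-CAT elements, was at 14.1 FPKM in the CHAPIR heart, against 5.77 FPKM in the NC heart (log2 ratio 1.15), and Hand2 at 20.5 FPKM in CHAPIR against 15.2 FPKM in NC. Gata4 at 26.7 FPKM in CHAPIR against 33.5 FPKM in NC and Nkx2-5 at 21.5 FPKM in CHAPIR against 27.0 FPKM in NC were the lowest. Srf was at 18.0 FPKM in CHAPIR against 21.1 FPKM in NC and its cofactor Myocd at 5.84 FPKM in CHAPIR against 6.60 FPKM in NC, both named after their values were seen. The 6 genes with an M-CAT match in a window were Acta1, Tnnt2, Tpm1, Tnnc1, Tmod1 and Nebl, whose log2 ratios ran from -0.49 to 0.01, the highest being Tnnt2. Not all of these windows lie before the main listed transcript, as given above. A link between any regulator and the level of these genes was not tested.

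Most cardiomyocyte markers lay a little below 0. Of the 12 cardiomyocyte markers, 9 had negative and 3 positive log2 ratios, and 0 passed 1.5-fold. Their median was -0.16, beside 0.01 over all genes and -0.07 over those at 100 FPKM or more. Tcap (CHAPIR 1027, NC 839 FPKM) and Pln (CHAPIR 612, NC 602 FPKM) were the highest, and Mybpc3 (CHAPIR 532, NC 652 FPKM) and Ryr2 (CHAPIR 85.3, NC 104 FPKM) the lowest. Tnnc1, at -0.24, lay within the range of these markers and Acta1 lay below it. The 6 atrial markers summed to 2608 FPKM in the CHAPIR heart, against 2790 FPKM in the NC heart, with a median of -0.06. Dkk3 (CHAPIR 52.3, NC 42.4 FPKM) and Stard10 (CHAPIR 34.0, NC 29.4 FPKM) were the highest of them, and Myl7 (CHAPIR 481, NC 616 FPKM) and Myl4 (CHAPIR 374, NC 449 FPKM) the lowest.

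Markers of macrophages, fibroblasts, red cells and adipocytes had medians further from 0 than cardiomyocyte markers, and endothelial markers did not. Of 7 macrophage markers, 4 were 1.5-fold higher, against 6.81% of all genes, and all 7 lay above 0. Their median was 0.70 and their sum 274 FPKM in the CHAPIR heart, against 162 FPKM in the NC heart. C1qb was at 82.4 FPKM in CHAPIR against 41.7 FPKM in NC and Adgre1 at 7.72 FPKM in CHAPIR against 4.31 FPKM in NC, with Cd68 (CHAPIR 11.9, NC 8.70 FPKM) and Csf1r (CHAPIR 15.6, NC 11.2 FPKM) the nearest to 0. Fibroblast markers had 2 of 7 higher at 1.5-fold, against 6.81% of all genes, and a median of 0.23. The 7 summed to 622 FPKM in CHAPIR against 519 FPKM in NC. Col3a1 (CHAPIR 66.7, NC 37.4 FPKM) and Col1a1 (CHAPIR 21.4, NC 13.7 FPKM) were the highest. Tcf21 (CHAPIR 7.62, NC 8.93 FPKM) and Lum (CHAPIR 48.3, NC 55.2 FPKM) were the lowest.

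All 5 red cell markers lay above 0 (median 0.32, sum 3037 FPKM in CHAPIR against 2404 FPKM in NC), from Hba-a2 (CHAPIR 853, NC 695 FPKM) and Hba-a1 (CHAPIR 730, NC 587 FPKM) to Hbb-bt (CHAPIR 341, NC 267 FPKM) and Hbb-bs (CHAPIR 1093, NC 839 FPKM). So did the 6 endothelial markers (median 0.16, sum 196 FPKM in CHAPIR against 174 FPKM in NC), from Pecam1 (CHAPIR 47.7, NC 44.8 FPKM) and Tek (CHAPIR 17.3, NC 16.0 FPKM) to Tie1 (CHAPIR 18.2, NC 15.5 FPKM) and Kdr (CHAPIR 41.4, NC 32.4 FPKM). Of 6 measured adipocyte markers, 5 were 1.5-fold lower (median -1.81), against 3.85% of all genes. Plin1 and Retn, however, passed the filter only through the NC library and had to be lower. The sum over all 7 was 439 FPKM in CHAPIR against 482 FPKM in NC. Adipoq (CHAPIR 1.35, NC 9.87 FPKM) and Plin1 (CHAPIR 0.324, NC 3.98 FPKM) were the lowest and Fabp4 (CHAPIR 422, NC 423 FPKM), which other cells also express, and Cfd (CHAPIR 13.5, NC 34.3 FPKM) the nearest to 0. Retn and Lep were listed at 0 in the CHAPIR library and were at 2.69 and 0.724 FPKM in the NC library. The part of any of these cell types in the values of the 10 thin filament genes and their paralogs was not tested.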

How the data were processed

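Heart RNA of 1 CHAPIR-treated and 1 NC-treated mouse was sequenced. Total RNA was extracted with Trizol and made into stranded libraries by random priming with dUTP in the second strand, per the labels' protocols. The authors deposited 1 value per Ensembl transcript and library, with no unit named. It was treated as FPKM, since the deposited values times length in kilobases gave totals of 739668 (CHAPIR) and 732588 (NC), below the upper limit that the unit allows. If they were TPM, each ratio between libraries, before any pseudocount, would differ by 1 constant factor. The submitters' processing notes name cutadapt, HISAT2 2.0.5, StringTie, STAR 2.5.2b and GRCm38. Their roles and the annotation are not given in the sources used here. Every transcript reached 0.5 in its higher library. Depth is unknown.

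Transcripts were matched by identifier without version to GENCODE M21 (GRCm38). Of these 23128 matched, 50 did not, and all 43 thin filament transcripts matched with the same version. Listed transcripts were summed per gene, giving 12395 genes, of which 11416 reached 1 FPKM in at least 1 library. The log2 ratio used a pseudocount of 1 and the fold threshold was 1.5. With 1 library per group no test was made. A list member counted as measured on the same filter. The text names all 10 genes and their listed transcripts, and of each other list the 2 highest and 2 lowest log2 ratios and any marker listed at 0. The members and lists were chosen with earlier results of these data known. Exon and transcript sequences came from GENCODE M21 and promoter windows from RefSeq. Calculations used Python 3.11.15, pandas 2.3.3 and numpy 2.4.6, and were tested on simulated data. Alternatives were pseudocounts of 0.1 and 5, other filters, centring, 3 other scalings, the most abundant transcript per gene, and matching by version.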

Additional observations from a re-analysis of the deposited data

How the results depend on the processing

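With a pseudocount of 0.1, 1108 of all genes were 1.5-fold higher and 692 lower, against 778 and 440 with a pseudocount of 1, and with one of 5 there were 271 higher and 137 lower. A mean of at least 5 FPKM left 6752 genes, 345 higher and 173 lower, and the most abundant transcript per gene gave 1206 higher and 848 lower. Of the thin filament genes, 0 were 1.5-fold higher with a pseudocount of 5 or a mean of at least 5, because Tnni1 is low, against 1 otherwise. Of their transcripts, 2 were higher and 1 lower with a pseudocount of 5, against 6 and 2. For all other changes the cause was not tested. Among log2 ratios of single thin filament genes, 97 values under the alternatives shifted by less than 1 SD of similarly expressed genes and 2, both of Tnni1, by more, and among transcripts 238 and 8. Acta1 ran from -0.56 to -0.46, Lmod2 from 0.19 to 0.27, and the median of the 10 genes from -0.08 to 0. The direction of Tnnt2 is undecided, at -0.02 with values divided by their sum and up to 0.08 otherwise. Under quantile normalization Actc1, Tnni3 and Tnnc1 were at 0, since their ranks were equal in both libraries. No scaling moved the median of all genes by 0.1. No paired analysis was possible because there is 1 library per group. Unknown depth limits the low transcripts most.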
